A study of Homo sapiens with 9 samples.

Results

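The known androgen-induced genes described here are 50 genes that earlier work on the androgen receptor has named as induced by androgen, among them ZBTB16, GREB1, ABCC4 and ADAMTS1. Of the 50 genes, 46 were named by a probe set that carries a single gene symbol. ACSL3, SORD, KCNN2 and HERC3 had no such probe set and were not analysed here. For these and all 19775 genes of the array, the probe set that was brightest on average over the 9 arrays stood for the gene. Of the 46 genes, 45 entered the tests among 11865 genes in all. AKAP12, with a mean level of 5.58 on the log2 scale, fell below the filter at 5.92 and is described by its values.

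The androgen receptor is a transcription factor of the nuclear receptor family that binds testosterone and its stronger derivative dihydrotestosterone (DHT). With its ligand it enters the nucleus, binds androgen response elements, which are inverted repeats of a short half-site mostly far from gene starts, and recruits coactivators. In prostate luminal cells its targets serve secretion, lipid and sugar metabolism and signalling, and in prostate cancer they also take part in growth. Topoisomerase II beta, encoded by TOP2B, cuts both DNA strands and passes another duplex through the cut. The study asked how blocking or lowering this enzyme bears on the response to androgen.

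All 9 arrays held RNA of LNCaP, an established and androgen-responsive human prostate cancer cell line, and each group had 1 array. In the inhibitor series, 1 group (steady state) grew in medium with 10% serum. The vehicle group was kept for 48 h in 5% charcoal-stripped serum, which removes androgens and other small hydrophobic hormones. The other groups of that series were deprived in the same way and given 100 nM DHT for 16 h, alone or after 2 h with 100 µM etoposide or 100 µM merbarone. Etoposide holds topoisomerase II in its DNA-cleaving state, whereas merbarone inhibits catalysis without holding the enzyme there, and neither distinguishes the beta enzyme from its alpha relative. The cells of the shRNA series received by transfection a green fluorescent vector for a control hairpin (sh-control) or a hairpin against TOP2B (sh-TOP2B), deprived of androgen, given vehicle or 100 nM DHT for 16 h and sorted for fluorescence. The steady-state group therefore differed from the vehicle group in the whole serum and not in androgen alone.

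Levels are log2 expression values, and differences are log2 differences, so that 1 is a doubling. The median of each array lay between 5.61 and 5.72, and a level under it is called dim. Where 1 of 2 levels was dim, it was set to the median and the difference is written as "at least"; where both were dim, no size is given. A p-value beside a bound belongs to the deposited difference. Of the 46 genes, 41 were above the median on every array. HPGD and AKAP12 were dim on 6 arrays, INPP4B on 4, GREB1 on 3 and IQGAP2 on 1. HPGD and GREB1 passed the filter through their levels with DHT in the shRNA series. INPP4B passed it through that series as a whole, where it read 7.08 to 8.80 with vehicle and DHT.

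TOP2B itself read 10.54 with vehicle and 10.87 with DHT in sh-control cells; sh-TOP2B cells read 10.09 and 10.01. It was thus lower by 0.45 with vehicle and by 0.86 with DHT, or 1.37-fold and 1.81-fold, and neither difference passed the test (limma adjusted p = 1 and 0.184). On the inhibitor-series arrays it read 10.44 in steady state, 10.55 with vehicle, 10.57 with DHT, 9.94 with etoposide and 10.03 with merbarone. The difference between the 3' and 5' beta-actin control probe sets, which grows as RNA is degraded, was 0.38 to 0.70 in the inhibitor series and 2.38 to 3.09 in the shRNA series. Of the 7 prostate luminal markers listed, 6 had a probe set and were above the median on all 9 arrays, with a list mean of 11.22 to 12.03. Of the markers of other cell types, 2 of 3 basal (KRT14 and KRT15), 3 of 6 stromal (COL1A2, DCN and LUM), 2 of 3 leukocyte (PTPRC and CD14), 1 of 3 endothelial (CDH5) and 1 of 4 neuroendocrine genes (CHGA) were dim on all 9 arrays. The stromal genes VIM, COL1A1 and ACTA2, the endothelial gene VWF and the neuroendocrine genes ENO2 and NCAM1 were above the median on every array. NCAM1 lay only just above it, at 5.75 to 6.09, so its expression is not read from these levels. Arrays of 1 series correlated at 0.951 to 0.995 over probe sets and arrays of different series at 0.880 to 0.916.

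The first comparison asks which of these genes rose with DHT. DHT raised 8 of the 45 tested genes and lowered 0 (limma, adjusted p under 0.05), or 17.8% and 0%, beside 0.421% of all genes called higher and 0.0253% called lower. The 8 were the transcription regulators GREB1, ZBTB16 and MAF, the kinase gene STK39, the scaffold gene IQGAP2, the kinetochore gene CENPN, the hydrolase gene ABHD2 and the transporter gene ANKH. GREB1 entered the test only through its high DHT levels in the shRNA series, which belong to the same comparison. Its call is therefore set aside and is no support for a rise. The mean over the 3 pairs of DHT and vehicle arrays was above 0 for 44 of the 45 genes, with a median of 0.86 beside -0.02 over all genes tested. As deposited it was at least 1 for 19 of the 45, beside 102 of all 11865 genes. An unadjusted p under 0.05 was seen for 38 of the 45, beside 2288 of all genes. The genes were chosen as known androgen targets with results of these data already seen, so these counts describe the list and are no independent evidence of its direction. The test measures the spread between 3 pairs of arrays only, and its count rests on single pairs: without the sh-control pair 0 of the 45 were called, without the sh-TOP2B pair 4, and without the inhibitor series 38. Without the trend of the spread on mean level 2 were called.

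**Figure D1:**
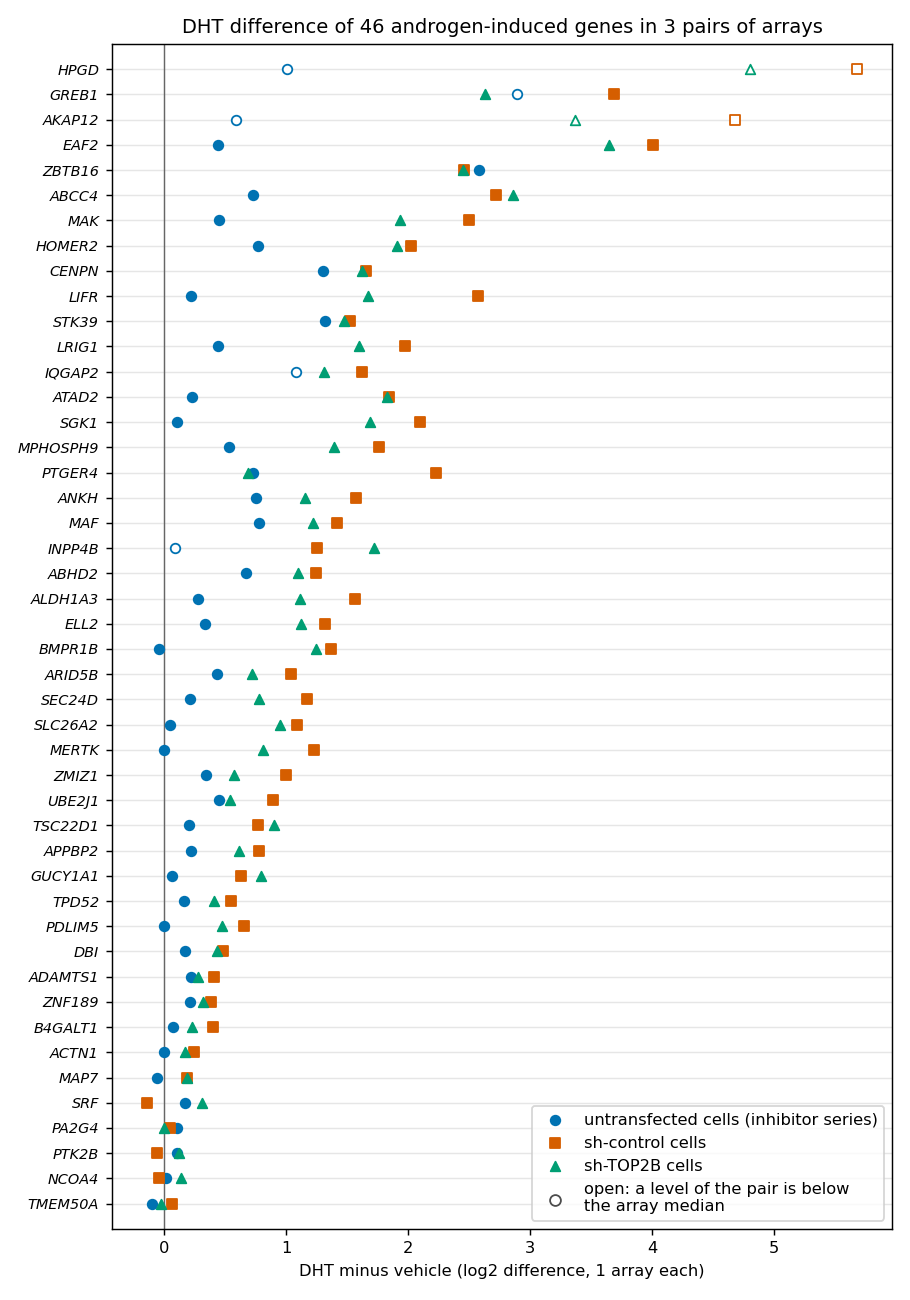
DHT minus vehicle (log2 difference) of the 46 measured genes in untransfected cells of the inhibitor series, in sh-control cells and in sh-TOP2B cells, with 1 array per level, ordered by the mean. Open symbols mark pairs with a dim level. The inhibitor-series points mostly lie to the left of the shRNA-series points, while the 3 points of ZBTB16, STK39 and CENPN lie close together.

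Among the transcription and chromatin genes, 13 were tested, 3 were called higher with GREB1 among them, and the median was 0.73. ZBTB16, a zinc-finger repressor of transcription, read 6.80 with vehicle and 9.39 with DHT in the inhibitor series, 7.03 and 9.50 in sh-control cells, then 7.18 and 9.63 in sh-TOP2B cells. Each DHT array lay above each vehicle array by more than 2, and the mean rise was 2.50 ± 0.10 (SE, 3 pairs), or 5.66-fold (limma adjusted p = 0.000484). GREB1, a chromatin-bound cofactor of hormone receptors, read 3.01 and 5.90, 6.54 and 10.23, and 6.80 and 9.43 in the same order. Its vehicle level in the inhibitor series was dim, and it was higher by at least 2.19. Its adjusted p of 0.0062 (limma) is set aside, since its DHT levels also carried it past the filter. MAF, a leucine zipper transcription factor gene, rose by 1.14 ± 0.13 (adjusted p = 0.0286).

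EAF2, which encodes a partner of the elongation factor ELL, read 5.99 with vehicle and 6.43 with DHT in the inhibitor series, 7.95 and 11.95 in sh-control cells, then 7.68 and 11.33 in sh-TOP2B cells. Its differences of 0.44, 4.01 and 3.65 were too uneven for the mean of 2.70 ± 0.63 to pass (adjusted p = 0.113). It read 6.68 in steady state, 6.26 with etoposide and 6.06 with merbarone. The mean differences of the elongation factor gene ELL2 (0.92), the bromodomain gene ATAD2 (1.30), ARID5B (0.73), TSC22D1 (0.62), the receptor coactivator gene ZMIZ1 (0.64) and ZNF189 (0.30) did not pass either. NCOA4, which encodes a receptor coactivator and carrier of ferritin to the lysosome, read 12.23 and 12.24 in the inhibitor series, 12.47 and 12.43 in sh-control cells, then 12.33 and 12.47 in sh-TOP2B cells. PA2G4, a gene for a receptor corepressor, read 9.90 and 10.00, 11.31 and 11.36, and 11.30 and 11.30. The DHT and vehicle levels of both genes overlapped, and their mean differences were 0.04 ± 0.05 and 0.05 ± 0.07, with 95% intervals of -0.09 to 0.16 and -0.11 to 0.21. On the steady-state, etoposide and merbarone arrays NCOA4 read 12.33, 12.28 and 12.33 and PA2G4 read 11.17, 9.91 and 10.23, so that PA2G4 was highest in steady state among the inhibitor-series arrays and NCOA4 stayed within its other levels. SRF, a transcription factor of cytoskeletal genes, had a mean difference of 0.11.

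Of the 6 tested kinase and scaffold genes, 2 rose and the median was 1.39. STK39, a kinase of ion cotransporters, read 8.77 with vehicle and 10.09 with DHT in the inhibitor series, 9.53 and 11.05 in sh-control cells, then 9.41 and 10.88 in sh-TOP2B cells. It read 11.16 in steady state, 9.62 with etoposide and 9.56 with merbarone. Its rises of 1.32, 1.52 and 1.47 gave a mean of 1.44 ± 0.08, or 2.71-fold (adjusted p = 0.00209). IQGAP2, a scaffold of small GTPases, was dim with vehicle in the inhibitor series and rose by at least 1.22 (adjusted p = 0.0320). MAK, a kinase gene first known from male germ cells, read 6.13 and 6.58, 7.32 and 9.82, and 7.71 and 9.64. Its differences of 0.45, 2.50 and 1.93 had a mean of 1.62 ± 0.35 that did not pass. The stress and ion-transport kinase gene SGK1 (1.30) and the scaffold gene HOMER2 (1.56) did not pass. PTK2B, a relative of focal adhesion kinase, read 7.60 and 7.69, 8.93 and 8.87, and 8.59 and 8.71, with a mean of 0.05 ± 0.11, and 7.27 in steady state, 7.55 with etoposide and 7.46 with merbarone.

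AKAP12, which encodes an anchor of protein kinase A, was dim with vehicle in all 3 pairs, at 4.54, 3.43 and 4.50, and with DHT in the inhibitor series at 5.13. With DHT it reached 8.11 in sh-control and 7.87 in sh-TOP2B cells, so it was at least 2.41 and at least 2.16 higher there. It was not tested, since its mean over all arrays was below the filter. HPGD, the gene of the enzyme that inactivates prostaglandins, had the same pattern: 4.16 with vehicle and 5.17 with DHT in the inhibitor series, both dim, 4.51 and 10.20 in sh-control cells, then 5.13 and 9.94 in sh-TOP2B cells. It was at least 4.49 and at least 4.23 higher with DHT in the shRNA pairs, and its mean over the 3 pairs did not pass (adjusted p = 0.0949). In steady state HPGD read 7.03 and AKAP12 6.67, and both were dim with etoposide (4.91 and 5.13) and with merbarone (4.07 and 4.80).

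Of the 6 tested enzyme genes, 1 rose and the median was 0.99. ABHD2, a lipid hydrolase gene, rose by 1.00 ± 0.11 (adjusted p = 0.0267), with differences of 0.67, 1.24 and 1.10. ALDH1A3, the gene of an enzyme that makes retinoic acid (0.98), the phosphoinositide phosphatase gene INPP4B (at least 0.99), the acyl-CoA binding protein gene DBI (0.36) and the galactosyltransferase gene B4GALT1 (0.23) did not pass. Among the 4 tested genes of transporters and membrane proteins, 1 rose and the median was 0.93. ANKH, a pyrophosphate transporter gene, rose by 1.16 ± 0.14 (adjusted p = 0.0354). ABCC4, the gene of a pump that exports prostaglandins and cyclic nucleotides, read 9.73 and 10.46, 9.33 and 12.05, and 9.04 and 11.90, with 10.99 in steady state. Its mean of 2.10 ± 0.39, from 0.73, 2.72 and 2.86, did not pass (adjusted p = 0.0855). The sulfate transporter gene SLC26A2 (0.70) did not pass, and the membrane protein gene TMEM50A had the lowest mean, -0.02 ± 0.07. It read 11.01 and 10.91, 10.91 and 10.97, and 11.11 and 11.08, with 9.43 in steady state, 10.91 with etoposide and 10.34 with merbarone, and a second bright probe set of the gene gave 0.14.

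The 6 receptor genes had a median of 1.04 and none passed, although all 6 had an unadjusted p under 0.05. Their mean differences were 1.49 for LIFR, the receptor of leukemia inhibitory factor, 1.34 for LRIG1, an inhibitor of epidermal growth factor receptors, 1.22 for the prostaglandin receptor gene PTGER4, 0.86 for the bone morphogenetic protein receptor gene BMPR1B, 0.68 for the tyrosine kinase receptor gene MERTK and 0.49 for GUCY1A1, a subunit of the nitric oxide receptor. The 4 genes of cytoskeleton and matrix had the lowest median, 0.22, and none passed: 0.37 for PDLIM5, 0.30 for the extracellular protease gene ADAMTS1, 0.14 for the actin crosslinker gene ACTN1 and 0.11 for the microtubule-binding gene MAP7. Among the 6 genes of trafficking, ubiquitin and division, CENPN rose and the median was 0.67. CENPN, which encodes a kinetochore protein, read 8.32 and 9.62, 10.41 and 12.06, and 10.39 and 12.01, a mean rise of 1.52 ± 0.09 (adjusted p = 0.00226). MPHOSPH9 (1.23), the vesicle coat gene SEC24D (0.72), the ubiquitin-conjugating enzyme gene UBE2J1 (0.63), APPBP2 (0.54) and the vesicle trafficking gene TPD52 (0.37) did not pass.

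Promoter sequences show what lies just before the starts of these genes. The stretches of 250 bases before annotated starts were taken from RefSeq (GRCh38.p14) for the 40 of the 50 genes that matched the table, 79 stretches in all. The androgen receptor half-site AGAACA, or TGTTCT on the other strand, lay in 5 of the 79 (6.33%), beside 4350 of 35116 stretches of all genes (12.4%). The whole inverted repeat of this half-site, with 3 free bases between the repeats and up to 2 of its 12 fixed letters changed, overlaps the half-site where exact and was in 0 of the 79 and in 1.18% of all. A match is a description of letters and no binding was measured. The 5 stretches with a half-site belong to STK39 and IQGAP2, which rose, and to LIFR, TSC22D1 and ACTN1, whose mean DHT differences of 1.49, 0.62 and 0.14 did not pass. The stretches of CENPN, which rose evenly, and of EAF2, ABCC4, HPGD and MAK hold none. Shown are the half-site stretches of STK39, IQGAP2 and LIFR, chosen after their values were seen, and that of EAF2, among the largest rises in the shRNA pairs, as a stretch without one. STK39 lies at chr2:168247596-168247845 on the minus strand, IQGAP2 at chr5:76547159-76547408 on the plus strand, LIFR at chr5:38557468-38557717 on the minus strand and EAF2 at chr3:121834959-121835208 on the plus strand. Each is written 5′ to 3′ along its gene's strand up to the base before the start, with the half-site in capitals.
STK39: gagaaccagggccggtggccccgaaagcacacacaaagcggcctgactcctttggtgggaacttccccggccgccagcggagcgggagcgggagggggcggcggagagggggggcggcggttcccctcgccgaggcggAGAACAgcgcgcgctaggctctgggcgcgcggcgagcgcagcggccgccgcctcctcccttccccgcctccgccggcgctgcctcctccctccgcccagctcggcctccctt
IQGAP2: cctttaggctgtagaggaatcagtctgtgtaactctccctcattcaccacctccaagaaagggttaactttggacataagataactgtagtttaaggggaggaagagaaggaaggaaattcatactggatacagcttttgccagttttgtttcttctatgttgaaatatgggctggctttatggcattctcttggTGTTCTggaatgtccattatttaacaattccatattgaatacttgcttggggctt
LIFR: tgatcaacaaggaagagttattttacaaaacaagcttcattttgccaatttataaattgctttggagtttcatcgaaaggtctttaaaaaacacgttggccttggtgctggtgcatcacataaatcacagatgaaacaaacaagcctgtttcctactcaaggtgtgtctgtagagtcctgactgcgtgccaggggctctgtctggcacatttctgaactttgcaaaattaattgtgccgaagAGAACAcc
EAF2: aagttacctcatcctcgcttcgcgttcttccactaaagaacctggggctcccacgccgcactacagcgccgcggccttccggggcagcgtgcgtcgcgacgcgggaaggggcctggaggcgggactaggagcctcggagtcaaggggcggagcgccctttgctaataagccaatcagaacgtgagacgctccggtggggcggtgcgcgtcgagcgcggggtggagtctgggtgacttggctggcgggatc
The half-sites began at positions -112, -55 and -8 from the start in STK39, IQGAP2 and LIFR, and IQGAP2 and LIFR had 3 annotated starts each, of which 1 is shown. The stretch of STK39 had a GC content of 76.4% and that of EAF2 of 66.8%, while IQGAP2 had 40% and LIFR 40.8%, beside medians of 64% for the 79 stretches and 58% for all.

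The size of the response differed between the series. Over the 45 genes the median DHT difference was 0.22 in the inhibitor series, 1.24 in sh-control cells and 0.95 in sh-TOP2B cells, beside 0, -0.04 and -0.03 over all genes tested. A difference of at least 1 was seen in 6, 27 and 22 of the 45, beside 0.244%, 2.11% and 1.74% of all genes. The 6 of the inhibitor series were ZBTB16, STK39 and CENPN, and IQGAP2, GREB1 and HPGD as deposited. The last 3 had a dim level and as bounds did not reach 1, so that 3 of the 45 remained, while the counts of the shRNA pairs were the same with bounds. The inhibitor series had the smallest of the 3 differences in 38 of the 45, beside 29.7% of all genes. In 35 of the 45, or 33 with bounds, all 3 pairs were higher with DHT (18% of all genes), and in 0 all 3 were lower (21.9% of all genes).

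A separate DHT term for the inhibitor series, added to the fit after these values were seen, tested the difference itself against the mean of the shRNA pairs. It was below 0 past the test for 18 of the 45 genes and above 0 for 0, beside 1.51% and 1.47% of all genes, and its median was -0.54 (-0.61 with bounds) beside 0.05 over all genes. Among genes with no dim level it was largest for EAF2 (-3.39 ± 0.26, limma adjusted p = 0.00015) and ABCC4 (-2.06 ± 0.15, adjusted p = 0.000124), followed by LIFR (-1.89) and SGK1 (-1.80). ZBTB16, STK39 and CENPN were not among the 18. HPGD was, but both its inhibitor-series levels were dim and it passed the filter through the shRNA arrays, so it is not counted as a measured change and 17 remained. Without the filter 10 of the 46 were called. Without a trend of the spread on mean level this fit called 0 of the 45, of which 22 had an unadjusted p under 0.05. The spread in this fit is that between the sh-control and sh-TOP2B pairs, so its p-values do not measure how an inhibitor-series pair varies. The series also differed in transfection, sorting and the beta-actin difference given above, and these cannot be told apart. The mean level of the endothelial list was 5.74 to 5.96 in the inhibitor series and 4.82 to 5.35 in the shRNA series, and that of the neuroendocrine list 5.69 to 5.94 and 6.17 to 6.49. Those of the basal (4.35 to 4.55 and 4.61 to 4.96) and leukocyte lists (4.76 to 4.89 and 4.25 to 4.52) also did not overlap. The prostate luminal list did not overlap either (11.46 to 12.03 and 11.22 to 11.41). The stromal list did overlap (5.96 to 6.63 and 6.4 to 6.74). Most basal and leukocyte genes were dim on all 9 arrays. The means of both lists, and of the endothelial list in the shRNA series, lay under the array medians. The gaps of these lists are therefore not read as a difference in cell types. The share of all genes without overlap between the series was not counted, and the part of these lists in the result was not tested.

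**Figure D2:**
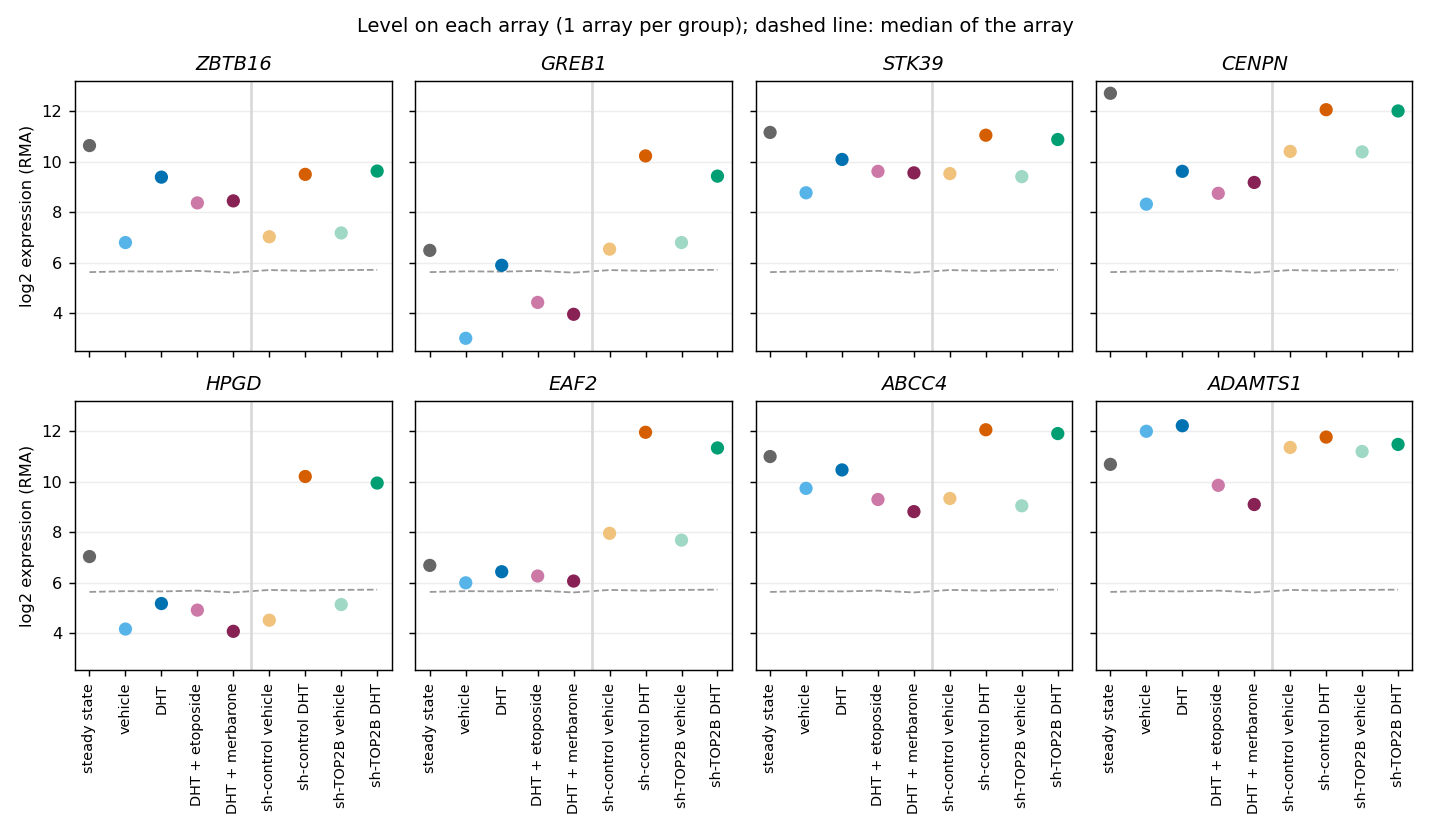
Log2 levels of ZBTB16, GREB1, STK39, CENPN, HPGD, EAF2, ABCC4 and ADAMTS1 on each of the 9 arrays, with 1 point per array. ZBTB16 rises with DHT in every pair, HPGD and EAF2 rise steeply in the shRNA pairs, and ADAMTS1 lies lowest on the etoposide and merbarone arrays.

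The next comparison sets cells in full serum beside deprived cells. In steady state 16 of the 45 genes were higher than with vehicle and 2 lower (35.6% and 4.44%), beside 15.7% and 12.4% of all genes. The median difference was 0.65 beside 0.04 over all genes. CENPN read 12.71 in steady state against 8.32 with vehicle and was 20.9-fold higher (4.39 ± 0.16, limma adjusted p = 2.84e-05). ZBTB16 read 10.64 against 6.80 and was 14.3-fold higher (3.84 ± 0.17, adjusted p = 4.28e-05). GREB1 read 6.49 against a dim 3.01 and was at least 0.84 higher (adjusted p = 0.0015). Both CENPN and ZBTB16 lay higher in steady state than on any other array, and with etoposide and merbarone they read 8.75 and 9.18 (CENPN) and 8.37 and 8.45 (ZBTB16). With the median over probe sets, 11 genes in place of 18 were called in either direction.

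The others called higher were ATAD2 (3.18), IQGAP2 (at least 3.11), HOMER2 (2.78), STK39 (2.39), MPHOSPH9 (1.90), UBE2J1 (1.70), ZMIZ1 (1.43), INPP4B (at least 1.32), PA2G4 (1.27), MAF (1.25), DBI (1.20), ABHD2 (0.86) and TPD52 (0.74). PA2G4 was thus higher in full serum although its DHT difference did not pass. TMEM50A (-1.58 ± 0.12) and ADAMTS1 (-1.31 ± 0.12) were lower. SGK1, at 6.12 in steady state and 8.05 with vehicle, was lower by 1.93 ± 0.60 and did not pass (adjusted p = 0.0553). The 6 receptor genes had a median of -0.40 and none passed, while 4 of the 6 genes of trafficking, ubiquitin and division and 6 of the 13 transcription and chromatin genes were called higher.

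Against the DHT array, 13 of the 45 genes were higher in steady state and 2 lower, beside 13.5% and 11.4% of all genes, with a median of 0.22 beside 0.04. CENPN was higher by 3.08 ± 0.16, ATAD2 by 2.95 ± 0.54, IQGAP2 by 2.38 ± 0.27 and HOMER2 by 2.01 ± 0.42, and TMEM50A (-1.48) and ADAMTS1 (-1.53) were again lower. The steady-state level lay below the DHT level for 17 of the 45 genes (44% of all genes) and below the vehicle level for 14 (43.6% of all genes). Both comparisons share the steady-state array, and each sets 1 array against another, with a spread taken from the 3 pairs.

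The inhibitor arrays ask whether the levels with DHT were kept when topoisomerase II was inhibited. No array held a compound without DHT, so an effect on the DHT response cannot be told apart from one on expression without DHT. With etoposide, 1 of the 45 genes was lower than with DHT alone past the test and 0 were higher, beside 0.834% and 0.211% of all genes. The gene was ADAMTS1, which encodes a secreted protease that cleaves proteoglycans. It read 10.68 in steady state, 11.99 with vehicle, 12.21 with DHT, 9.85 with etoposide and 9.09 with merbarone, and in the shRNA series 11.35 and 11.76 in sh-control and 11.19 and 11.47 in sh-TOP2B cells. The etoposide level was lower than the DHT level by 2.36 ± 0.12, or 5.12-fold (limma adjusted p = 0.00189), and also lay below the vehicle level. The call ended without the trend (limma adjusted p = 0.0576) and without the sh-control pair (0.0521), and over all alternatives the adjusted p ranged from 0.00104 to 0.0576.

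BMPR1B read 10.49 with vehicle, 10.45 with DHT, 8.07 with etoposide, 9.65 with merbarone and 9.64 in steady state. In the shRNA series it read 8.61 with vehicle and 9.99 with DHT in sh-control cells, then 8.57 and 9.81 in sh-TOP2B cells. Its etoposide difference of -2.37 ± 0.45 was as large as that of ADAMTS1 but did not pass (adjusted p = 0.0762). GREB1, dim with etoposide at 4.43, was lower by at least 0.22. ABCC4, at 9.29 with etoposide, differed by -1.17 ± 0.67, and ZBTB16, at 8.37, by -1.01 ± 0.17 (adjusted p = 0.0572). These were the 5 genes with a deposited difference of -1 or beyond (1.42% of all genes).

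The etoposide level was below the DHT level for 34 of the 45 genes, beside 58.6% of all genes, with a median of -0.23 (-0.18 with bounds in place of differences that rest on a dim level) beside -0.06. After shifting each array to equal medians of its maintenance probe sets, 29 of the 45 were below, beside 43.7% of all genes. PTGER4 and SGK1 had the largest positive differences, 0.64 ± 0.50 and 0.62 ± 0.60, and neither passed. PTGER4 read 8.46 in steady state, 8.42 with vehicle, 9.15 with DHT, 9.79 with etoposide and 9.43 with merbarone. SGK1 read 8.15 with DHT, 8.77 with etoposide and 7.72 with merbarone, and in the shRNA series 9.26 and 11.36 in sh-control and 9.84 and 11.53 in sh-TOP2B cells.

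With merbarone, 11 of the 45 genes were lower than with DHT alone and 0 higher (24.4% and 0%), beside 16.3% and 15.4% of all genes. The 11 fell to 5 without the trend, to 5 without the sh-TOP2B pair and to 6 with the median over probe sets. ADAMTS1 was lower by 3.12 ± 0.12, or 8.69-fold (adjusted p = 0.000104). GREB1, dim at 3.96, was lower by at least 0.28 (adjusted p = 0.0124). SLC26A2 (-1.22 ± 0.34), ZMIZ1 (-1.15 ± 0.22), ZBTB16 (-0.93 ± 0.17), ABHD2 (-0.89), MAF (-0.86), UBE2J1 (-0.78), TMEM50A (-0.56), B4GALT1 (-0.55) and STK39 (-0.54) were the others. On this array ABCC4 read 8.81 and ATAD2 6.57, against 10.46 and 7.84 with DHT, and their differences of -1.64 ± 0.67 and -1.27 ± 0.54 did not pass. ATAD2 read 10.79 in steady state, 7.61 with vehicle and 7.14 with etoposide, and in the shRNA series 8.94 and 10.78 in sh-control and 8.74 and 10.57 in sh-TOP2B cells.

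MAK had the largest positive difference with merbarone, 7.64 against 6.58 with DHT (1.05 ± 0.61), followed by SEC24D, 9.23 against 8.90 (0.33 ± 0.31), and neither passed. MAK read 6.83 in steady state and 7.02 with etoposide. SEC24D read 9.12 in steady state, 8.70 with vehicle and 8.55 with etoposide, and in the shRNA series 8.19 and 9.37 in sh-control and 8.25 and 9.02 in sh-TOP2B cells. The merbarone level was below the DHT level for 32 of the 45 genes, beside 49.8% of all genes, with a median of -0.39 beside 0. With the bounds in place of differences that rest on a dim level, the median was -0.30.

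**Figure D3:**
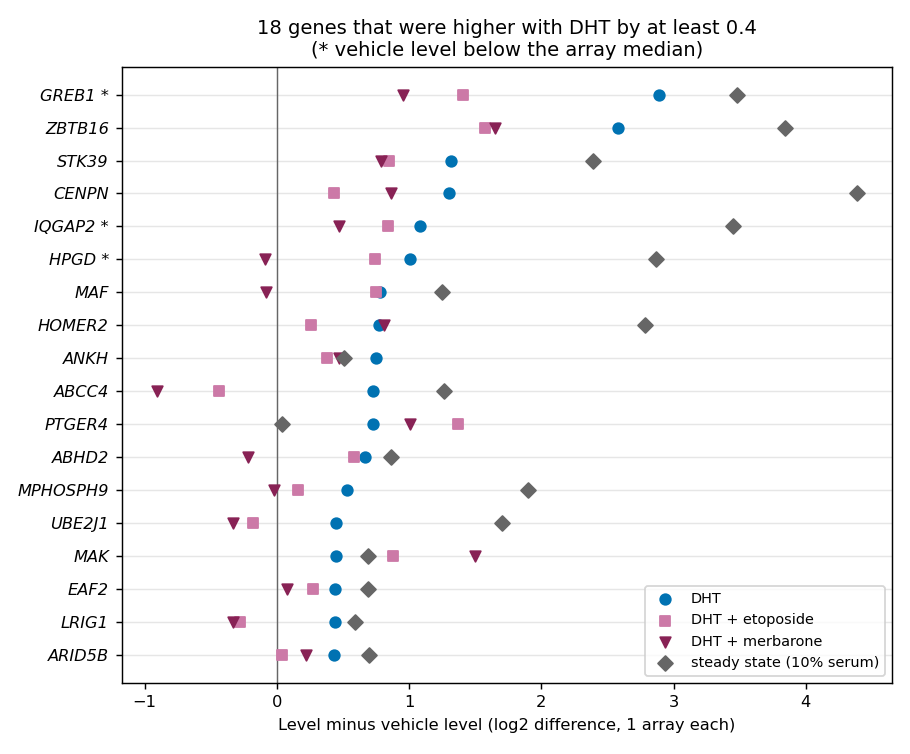
Level minus vehicle level (log2) in the inhibitor series for the 18 genes whose DHT level was at least 0.4 above vehicle, with 1 array each for DHT, DHT with etoposide, DHT with merbarone and steady state. An asterisk marks a dim vehicle level. Both compound points of ABCC4, LRIG1 and UBE2J1 lie left of 0, and CENPN has its steady-state point at 4.39.

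In the inhibitor series 18 genes had a DHT level at least 0.4 above vehicle, with a median gain of 0.74. The gain and the inhibitor differences share the DHT array, so the values are given side by side, each against vehicle. ABCC4 stood at 0.73 with DHT, at -0.44 with etoposide and at -0.91 with merbarone, so both compound levels lay under the vehicle level. LRIG1 stood at 0.44, -0.28 and -0.33 and UBE2J1 at 0.45, -0.18 and -0.33, in the same order. MAF stood at 0.78, 0.75 and -0.08 and ABHD2 at 0.67, 0.58 and -0.22, so these levels were near the DHT level with etoposide and under the vehicle level with merbarone. HOMER2 stood at 0.77, 0.26 and 0.81, but its other bright probe set was lower than with DHT by 0.73 with etoposide and by 1.06 with merbarone, so the probe sets disagree on the order of the compounds. ZBTB16 stood more than 1 above vehicle with either compound, at 2.58, 1.57 and 1.65. MAK (0.45, 0.88 and 1.50) and PTGER4 (0.73, 1.37 and 1.01) stood higher with both compounds than with DHT alone.

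The rise in the shRNA pairs was measured on arrays that the inhibitor comparisons do not use. Of the 45 genes, the 23 with the larger mean rise there (at least 1.17) had a median of -0.37 with etoposide and -0.54 with merbarone, and 17 of the 23 were below their DHT level with etoposide and 19 with merbarone. The other 22 had medians of -0.16 and -0.15, and 17 of the 22 were below with etoposide and 13 with merbarone. The 118 other genes with a mean rise as large had medians of -0.27 and -0.21, with 72.9% and 61% below. Across the 45 genes, which are not independent, the rise in the shRNA pairs correlated with the etoposide difference at r = -0.10, with the merbarone difference at r = -0.26, with the steady-state difference from vehicle at r = 0.46 and with the rise in the inhibitor series at r = 0.56. Over all genes the same correlations were -0.08, -0.09, 0.37 and 0.37.

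Etoposide and merbarone were given at the same dose and time and formed the only pair of compounds compared. Etoposide left 6 of the 45 genes higher than merbarone did and 2 lower (13.3% and 4.44%), beside 13.5% and 19.1% of all genes. The median was 0.07 beside -0.03. The share called higher was thus near that of all genes, so the count is no trait of this list. Higher with etoposide were SLC26A2 (1.22 ± 0.34), MAF (0.83), ABHD2 (0.80), ADAMTS1 (0.76), TMEM50A (0.56) and B4GALT1 (0.48). Lower with etoposide were BMPR1B (-1.57 ± 0.45, adjusted p = 0.0386) and SRF (-0.80 ± 0.23, adjusted p = 0.0367). SLC26A2 read 9.53 with DHT and 9.53 with etoposide but 8.31 with merbarone. ZBTB16 differed by -0.08 between the compounds, with a 95% interval of -0.49 to 0.33, and STK39 by 0.07, with an interval of -0.27 to 0.41. The interval of ABCC4, -1.12 to 2.07, was too wide to tell the compounds apart. The count of 8 fell to 3 without the trend and to 3 without the sh-TOP2B pair.

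The knockdown comparisons ask whether the DHT response was smaller in sh-TOP2B cells. The DHT difference in sh-TOP2B cells lay below that in sh-control cells for 37 of the 45 genes, beside 49.4% of all genes, and the median of this difference of differences was -0.14 beside 0. After the shift to maintenance probe sets 30 of the 45 lay below, beside 37.4% of all genes, and after a repeated quantile normalization 35 of the 45, beside 46.4%. No gene of the 45, and none of all 11865, passed the test of a changed response against the other pairs (limma, 0%, with 205 genes and 0 of the 45 at an unadjusted p under 0.05). That test sets the sh-TOP2B response against the mean of the sh-control and the weaker inhibitor-series responses, and its term was above 0 for 34 of the 45, with a median of 0.14. It is therefore no test of the smaller response beside sh-control alone, which was not tested.

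**Figure D4:**
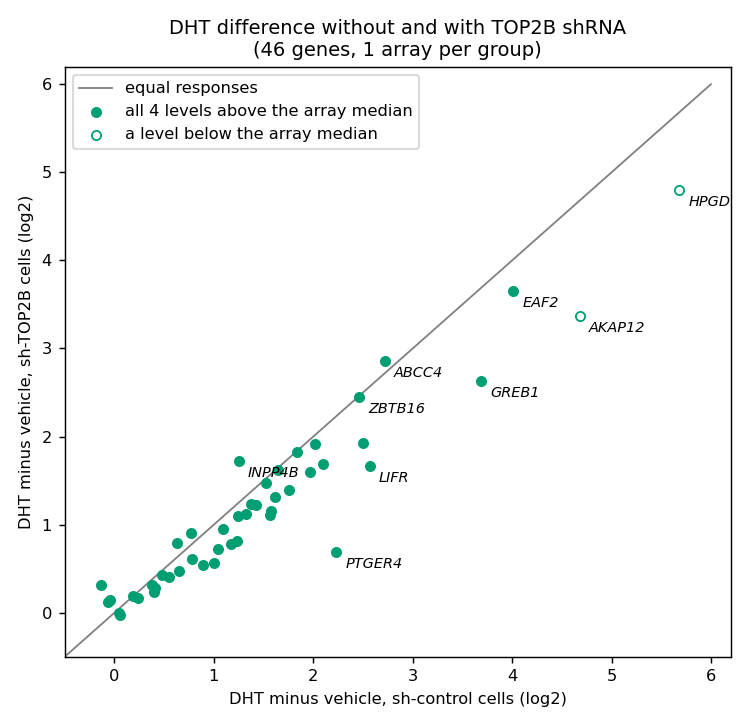
DHT minus vehicle (log2) in sh-TOP2B cells against the same in sh-control cells for the 46 measured genes, each from 1 array per level, with the line of equal responses. Open points have a dim level. Most points lie slightly below the line, and PTGER4, LIFR and GREB1 lie well below it.

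The largest shortfall among genes with no dim level in these pairs was that of PTGER4, whose response was 2.23 in sh-control and 0.69 in sh-TOP2B cells. It read 8.20 with vehicle and 10.43 with DHT in sh-control cells, then 10.21 and 10.90 in sh-TOP2B cells, so its vehicle level was the one that differed, by 2.01. The response of GREB1 was 3.69 and 2.63, and here the DHT level was lower in sh-TOP2B cells, by 0.80. The response of LIFR was 2.57 and 1.67, with vehicle levels of 9.0 and 9.73 and DHT levels of 11.57 and 11.40. ZBTB16 (2.46 and 2.45), ATAD2 (1.84 and 1.83), CENPN (1.65 and 1.62) and STK39 (1.52 and 1.47) differed by at most 0.05. INPP4B (1.25 and 1.72) and SRF (-0.14 and 0.31) had the larger response in sh-TOP2B cells.

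With DHT, the level in sh-TOP2B cells was below that in sh-control cells for 32 of the 45 genes, beside 54.4% of all genes, with a median of -0.14 beside -0.02. After the shift to maintenance probe sets 24 of the 45 were below, beside 35.3% of all genes, with a median of -0.05 beside 0.07. With vehicle it was above for 26 of the 45, beside 5139 of all 11865 genes, with a median of 0.04 beside -0.03. None of the 45 passed with DHT or with vehicle, beside 0.565% and 0.556% of all genes, and 1 of the 45 had an unadjusted p under 0.05 in each (limma). The 95% interval of the difference with DHT was -0.28 to 0.55 for ZBTB16 and -0.44 to 0.33 for CENPN, and -3.24 to 2.00 for EAF2.

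**Figure D5:**
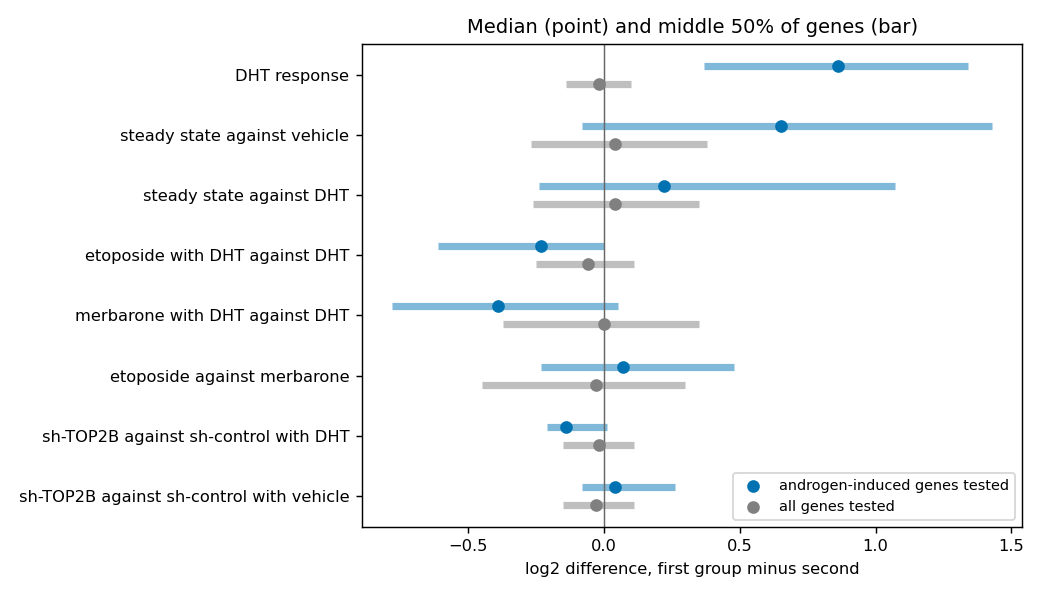
Median (point) and middle 50% (bar) of the log2 differences of the 45 tested androgen-induced genes and of all 11865 genes tested, for each comparison, first group minus second. The androgen-induced genes lie right of all genes for DHT and for steady state against vehicle and left of them for both inhibitors.

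Other genes of the pathway were taken from lists. Of 15 tested genes of receptor cofactors and chaperones, 0 passed for DHT, with a median of 0.06. An unadjusted p under 0.05 (limma) was seen for 3 of the 15, beside 2288 of all 11865 genes. With merbarone 6 of the 15 were lower and 1 higher, beside 16.3% and 15.4% of all genes, with a median of -0.36. The lower ones included HOXB13 (-1.53) and FOXA1 (-0.76), transcription factors that bind with the receptor, and HSP90AB1 (-0.64), a chaperone, and the higher one was the coactivator gene CREBBP (0.62). With etoposide 0 of the 15 passed, the median was -0.20 and 7 had an unadjusted p under 0.05, beside 1732 of all 11865 genes. Of 16 other tested genes known to be induced by androgen, 8 rose with DHT, with a median of 1.41, 1 was lower with etoposide (KLK3, -3.34, the gene of prostate-specific antigen; median -0.57) and 9 were lower with merbarone (median -0.83). Over all genes 0.421% rose with DHT, 0.834% were lower with etoposide and 16.3% were lower with merbarone. In sh-TOP2B cells with DHT, none of the 15 or the 16 passed, beside 0.565% of all genes, and the medians were -0.06 and -0.07.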

How the data were processed

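The deposited values are log2 expression values of 54675 probe sets on the Affymetrix U133 Plus 2.0 array, which the authors made with RMA, per the submitters' processing notes. Whether both series were processed together, and with which version, is not given in the sources used here. The method makes the distributions of arrays alike, so a shift common to most genes would not show. The members and lists were chosen with earlier results of these data known.

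Probe sets were named from the platform annotation (41097 with 1 symbol, 1801 with several, 11777 with none), and some genes are not reported here. The probe set brightest on average stood for its gene, and genes with a mean below the 40th percentile were left out. Tests used limma 3.58.1 in R 4.3.3, two-sided, with Benjamini-Hochberg adjustment over 11865 genes and a threshold of 0.05. An additive fit held the 3 backgrounds (inhibitor series, sh-control, sh-TOP2B) as blocks, a DHT term and a term for each of the steady-state, etoposide and merbarone arrays, with 2 residual and 4.62 prior degrees of freedom. Comparisons of 2 arrays took the direct difference with the spread of that fit, assuming that a lone array varies like the paired ones, and the intervals rest on the same spread. The labels name no cultures, so p-values cover the spread between these samples only, which may be technical, and the number of arrays limits the precision. A separate DHT term for the knockdown cells left 1 residual and had 5.16 prior degrees of freedom. The term for DHT in the inhibitor series (1 residual and 9.92 prior) was chosen after seeing the data. The DHT term of the additive fit and its comparison of 2 arrays were tested on simulated data.

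Values on every array are given for the 6 tested genes with the largest mean DHT rise, the 4 with the lowest, the 4 largest falls and the 2 largest rises under each inhibitor and the 3 highest in steady state; AKAP12 and STK39 were added after their values were seen. Alternatives were the eBayes trend, the filter, the median over probe sets, a shift to 100 maintenance probe sets, repeated quantile normalization, leaving out each pair, no block, and the fitted DHT level. Promoters were read from the RefSeq table (GRCh38.p14).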

Additional observations from a re-analysis of the deposited data

Results flagged for a closer look

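For 17 of the 45 tested genes, with HPGD left aside because both its inhibitor-series levels were dim, the DHT response of the inhibitor series differed from the mean response of the shRNA pairs by a test of the difference itself (limma adjusted p under 0.05), and it was smaller in all 17. Among enzyme genes the inhibitor-series response minus the shRNA response was -1.05 for ALDH1A3 and -0.50 for ABHD2. For transporters it was -2.06 for ABCC4 and -0.97 for SLC26A2. For receptors it was -1.89 for LIFR, -1.35 for BMPR1B, -1.35 for LRIG1 and -0.65 for GUCY1A1. For kinases and scaffolds it was -1.80 for SGK1, -1.76 for MAK and -1.20 for HOMER2. For transcription and chromatin genes it was -3.39 for EAF2, -1.61 for ATAD2, -0.89 for ELL2 and -0.63 for TSC22D1. For the remaining groups it was -1.05 for MPHOSPH9 and -0.56 for PDLIM5. BMPR1B and SGK1 had inhibitor-series differences of -0.04 and 0.10 beside sh-control differences of 1.37 and 2.10. The spread in this fit is that between the sh-control and sh-TOP2B pairs, so its p-values do not measure how an inhibitor-series pair varies. The calls were not kept without the trend of the spread on mean level. The fit was chosen after seeing the data, and the beta-actin 3' minus 5' difference (0.38 to 0.70 and 2.38 to 3.09), transfection and sorting differ between the series in the same way and cannot be told apart.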

How the results depend on the processing

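With 1 array per group, the count of genes called depends on how the spread is estimated, while the direction of the mean DHT difference rarely changed. All counts are of androgen-induced genes past limma's adjusted p of 0.05, and the cause of each change was not tested. For DHT the 8 called became 2 without the trend on mean level, 4 without the filter, 4 with the median over probe sets, and between 0 and 38 when a pair was left out. Without the background block (the only pairing possible here) it was 0, with 10 of the 45 at an unadjusted p under 0.05, and without the sh-control pair 0, with 28. For steady state against vehicle the 18 became 11 with the median over probe sets. For etoposide the 1 became 0 without the trend, 3 with the stricter filter, 4 against the fitted DHT level and between 0 and 1 with a pair left out, and at both counts of 0 between 10 and 11 of the 45 had an unadjusted p under 0.05. For merbarone the 11 became 5 without the trend, 6 with the median over probe sets and 5 to 9 with a pair left out. For etoposide against merbarone the 8 became 3 without the trend, 4 without the filter, 3 with the median over probe sets and 3 to 5 with a pair left out. For the inhibitor-series response the 18 became 0 without the trend and 10 without the filter. No alternative gave a call in the knockdown comparisons. The mean DHT difference of TMEM50A turned to 0.06 with the median over probe sets and ranged from -0.06 to 0.02 with a pair left out, and that of NCOA4 ranged from -0.01 to 0.07. Levels below the array median limit what can be said of HPGD, AKAP12, INPP4B, GREB1 and IQGAP2.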

Other observations

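Of the 45 tested genes, 28 had more than 1 bright probe set, and TMEM50A was the only one with a further bright probe set whose mean DHT difference had the opposite sign and a size of at least 0.1. The 3 bright probe sets of ABCC4 had mean DHT differences of 2.10, 2.41 and 2.66, etoposide differences from DHT of -1.17, -1.58 and -1.63 and merbarone differences of from -2.14 to -1.64. The 3 bright probe sets of BMPR1B had etoposide differences of -2.37, -1.92 and -1.16 and merbarone differences of -0.80, -0.90 and -0.30. The 2 probe sets of TMEM50A had merbarone differences of -0.56 and -2.30 and etoposide differences of 0.00 and -0.60. The other bright probe set of HOMER2 had a merbarone difference of -1.06, beside 0.05 for the one used. Merbarone differences of bright probe sets also varied for CENPN (-0.45 for the one used, -1.48 and -1.61) and APPBP2 (0.19 for the one used, -0.88 and 0.87). Those of ELL2 were -0.40 for the one used, -0.05 and -2.25, with etoposide differences of 0.46, 0.01 and -0.75. Merbarone differences were uneven for further genes. That of GUCY1A1 was -0.05 for the probe set used and -1.12 to -0.89 for the other bright ones. MPHOSPH9 had -0.54 for the one used and -2.10 to -0.49 for the others, and ANKH -0.28 and -1.51 to -0.25. TSC22D1 had 0.09 for the one used, -1.28 and 0.05, and LIFR had -0.43, -0.19, 0.19 and 0.91. The genes named are examples. Counts of genes below the DHT level therefore depend on the probe set used. Probe sets of a gene were not tested against each other.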
